A study of Homo sapiens with 8 samples.

Results

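The genes described here are those of the eIF2 phosphorylation circuit itself. They are 10 genes in 3 roles, namely the 4 eIF2α kinases EIF2AK1, EIF2AK2, EIF2AK3 and EIF2AK4, the phosphatase subunits PPP1R15A, PPP1R15B and PPP1CA, and the eIF2 subunits EIF2S1, EIF2S2 and EIF2S3. All 10 were found by gene symbol in the deposited counts, among 19964 genes with a coding transcript. Each gene was represented by the coding transcript that had most CDS footprints over both control libraries, and the 10 genes had 15 coding transcripts in all. HEK293T cells, a human embryonic kidney line that carries the SV40 large T antigen, were exposed to 40 µM sodium arsenite or to vehicle alone for 30 min. Each treatment was profiled in 2 replicates by ribo-seq, which reads the footprints left by ribosomes after nuclease digestion, and by mRNA-seq, which reads randomly fragmented mRNA. This gave 8 libraries of 1 cell line with no engineered allele. Both treatments therefore share the genotype, and they differ by arsenite alone.

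eIF2 is a trimer of α (EIF2S1), β (EIF2S2) and γ (EIF2S3) subunits that carries the initiator tRNA to the small ribosomal subunit. Each of the kinases phosphorylates the α subunit in response to its own set of stresses, and phosphorylated eIF2 blocks its exchange factor eIF2B, so that less eIF2 can be recharged with GTP and general initiation is lowered. The phosphate is removed by protein phosphatase 1, which PPP1R15A (GADD34, made in stressed cells) or PPP1R15B (CReP, made constitutively) directs to eIF2. Arsenite is known to act on this circuit mainly through EIF2AK1, and short open reading frames in 5′ leaders (uORFs) are known to allow translation of some mRNAs, among them ATF4 and PPP1R15A, when eIF2 is phosphorylated.

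Depth on the chosen transcripts was 1023989 to 7270582 reads in ribo-seq and 3992449 to 21715178 in mRNA-seq, and replicate 1 was the shallower one in both assays. Changes are given relative to the bulk of mRNAs, because TMM normalization was used, so a reduction shared by all mRNAs does not appear in them. The labels give the line as HEK293T. Of the 6 markers expected in it, LIN28B lay between 139 and 157 cpm (counts divided by the TMM-scaled library size) and VIM between 277 and 402 cpm in the mRNA-seq libraries, NEFM and NEFL were present at 42.2 to 116 cpm, and PAX2 and NES were low, at 1.55 to 5.17 cpm. Among the markers of other cell types, CD3E and HBB had 0 reads, ALB and PTPRC stayed below 1 cpm (0 to 0.776 cpm), COL3A1 lay at 0.258 to 0.982 cpm and COL1A1 at 9.52 to 12.9 cpm. The labels number the replicates, and the methods describe them as independent biological ones.

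The first question was which components of the circuit responded within 30 min, and at which level. No mRNA of the 10 genes passed the test, whereas ribosomes on the CDS of both regulatory phosphatase subunits rose relative to the bulk of mRNAs. This relative rise was 7.30-fold for PPP1R15A and 2.31-fold for PPP1R15B. The paper reports a general reduction in ribosome occupancy, which these values leave out, so they give no absolute change. In the main fits, with TMM and a mean of at least 10 counts, none of the kinases and none of the eIF2 subunits passed the test in any of the comparisons. For the RNA level, the quasi-likelihood test of edgeR (Benjamini-Hochberg adjusted over all genes) called 0 of 10 genes, against 5.75% of all 12599 genes tested. At an unadjusted p under 0.05 there were 2 of 10, against 18.4% of all genes, and DESeq2 called 0 of the 7 to which it gave an adjusted p (none for EIF2AK2, EIF2AK3 and PPP1R15A). For ribosome occupancy, which is the number of ribo-seq reads on the CDS, 2 of 10 were called, both higher in arsenite, against 2.77% of 10291 genes in either direction, 1.42% upward and 1.35% downward. At an unadjusted p under 0.05 there were 4 of 10, against 17.6% of all genes. For translational efficiency (TE), the ribosome occupancy relative to the mRNA, again 2 of 10 were called and both were higher, against 1.99% of 10273 genes in either direction and 0.993% upward, and 6 of 10 had an unadjusted p under 0.05, against 21.1% of all genes. All 10 genes passed the minimum of a mean of 10 counts in both assays. The median log2 TE change of the 10 was 0.14, beside -0.01 over all genes tested. The lysates are bulk samples, so more responding cells and a larger response per cell cannot be told apart.

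**Figure D1:**
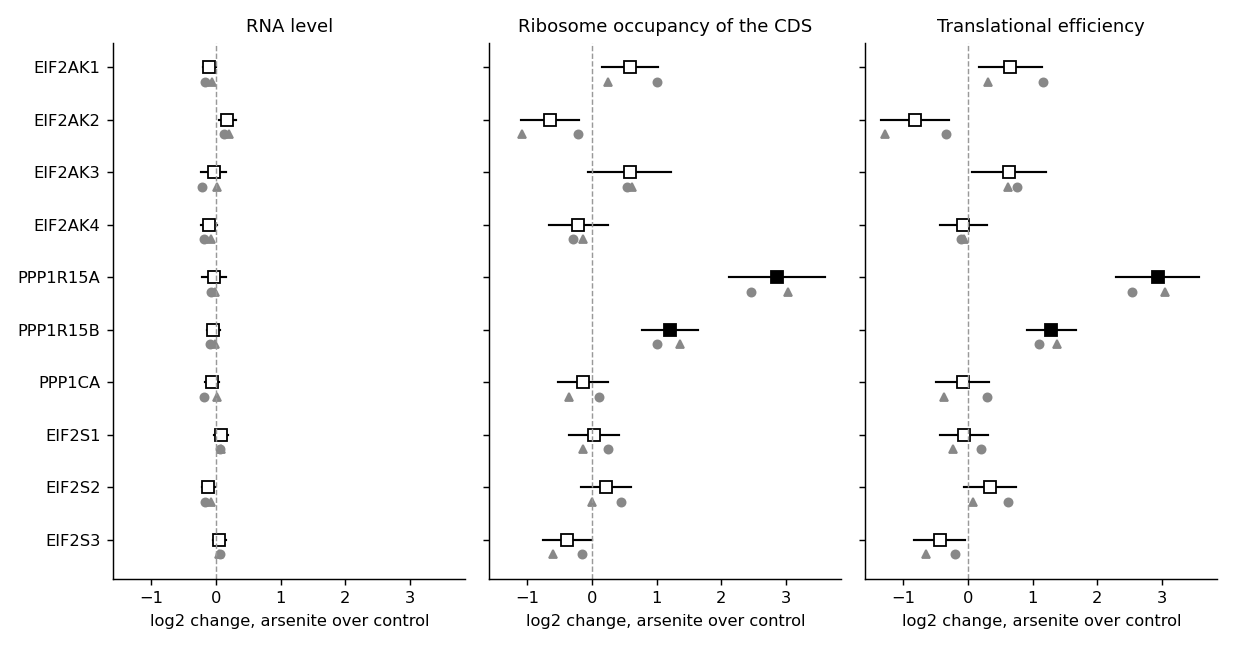
Log2 change in arsenite over control of the 10 genes (rows) for the RNA level, the ribosome occupancy of the CDS and TE. Squares with lines are edgeR estimates with 95% intervals, filled where the adjusted p was under 0.05, and the grey circle and triangle under each are replicates 1 and 2 on their own. Only PPP1R15A and PPP1R15B are filled, at log2 TE changes of 2.94 and 1.29, while the RNA changes all lie between -0.12 and 0.18.

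PPP1R15A, the subunit whose synthesis closes the feedback loop on eIF2 phosphorylation, gave the larger response. Its CDS held 8 and 21 ribo-seq reads in control (replicates 1 and 2) and 25 and 74 in arsenite, although the arsenite libraries were shallower. On the cpm scale these were 4.62 and 2.73 in control and 26.6 and 22.7 in arsenite. Both arsenite libraries were thus far above both control libraries. The mRNA stood at 28.3 and 25.5 cpm in control and at 26.9 and 25.2 cpm in arsenite, and the groups overlapped. The log2 change in ribosome occupancy was 2.87 (SE 0.360, adjusted p = 0.000108 by edgeR's quasi-likelihood test), and that in RNA level was -0.03 (SE 0.0938). The log2 TE change was 2.94 (SE 0.286, 95% interval 2.30 to 3.58, adjusted p = 0.00485 by edgeR), with 2.54 in replicate 1 and 3.05 in replicate 2. It ranked second from the highest of all 10273 genes. The 8 reads of control replicate 1 are few, so the size of the rise is known less well there than its direction.

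PPP1R15B, the constitutive partner of the phosphatase, rose as well relative to the bulk of mRNAs, from a higher starting level. It had 101 and 358 footprints on the CDS in control and 110 and 391 in arsenite, which are 58.4 and 46.6 cpm against 117 and 120 cpm. The arsenite libraries did not overlap with control and lay close together. mRNA reads came to 207 and 158 cpm in control and to 194 and 156 cpm in arsenite, an overlapping range. The log2 change in ribosome occupancy was 1.21 (SE 0.207, adjusted p = 0.00238 by edgeR). TE changed by 1.29 on the log2 scale (SE 0.169, 95% interval 0.91 to 1.67, adjusted p = 0.0126 by edgeR), by 1.10 and 1.38 in the replicates, and ranked 54th of 10273. The replicate ranges of PPP1R15A and PPP1R15B did not overlap, but the difference between these genes was not tested.

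These calls depend on comparing arsenite with control inside each replicate. In a fit without the replicate block, the log2 TE changes stayed at 2.91 and 1.24 but the adjusted p was 1.00 for both genes (edgeR), and in a fit with 1 block shared by both assays it was 0.597 and 1.00. DESeq2 called PPP1R15B in both measures (adjusted p = 0.0224 for occupancy and 0.000593 for TE) and gave no adjusted p to PPP1R15A, whose log2 TE change it put at 2.92.

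PPP1CA encodes a catalytic subunit of protein phosphatase 1 that serves many other regulatory partners too. Its ribo-seq reads on the CDS were at 184 and 261 cpm in control and at 199 and 204 cpm in arsenite, both arsenite values lying between the control ones. The log2 TE change was -0.08 (95% interval -0.50 to 0.33, adjusted p = 0.831 by edgeR), with opposite signs in the replicates (0.30 and -0.37). Within that interval the catalytic subunit could have moved by a modest amount either way.

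**Figure D2:**
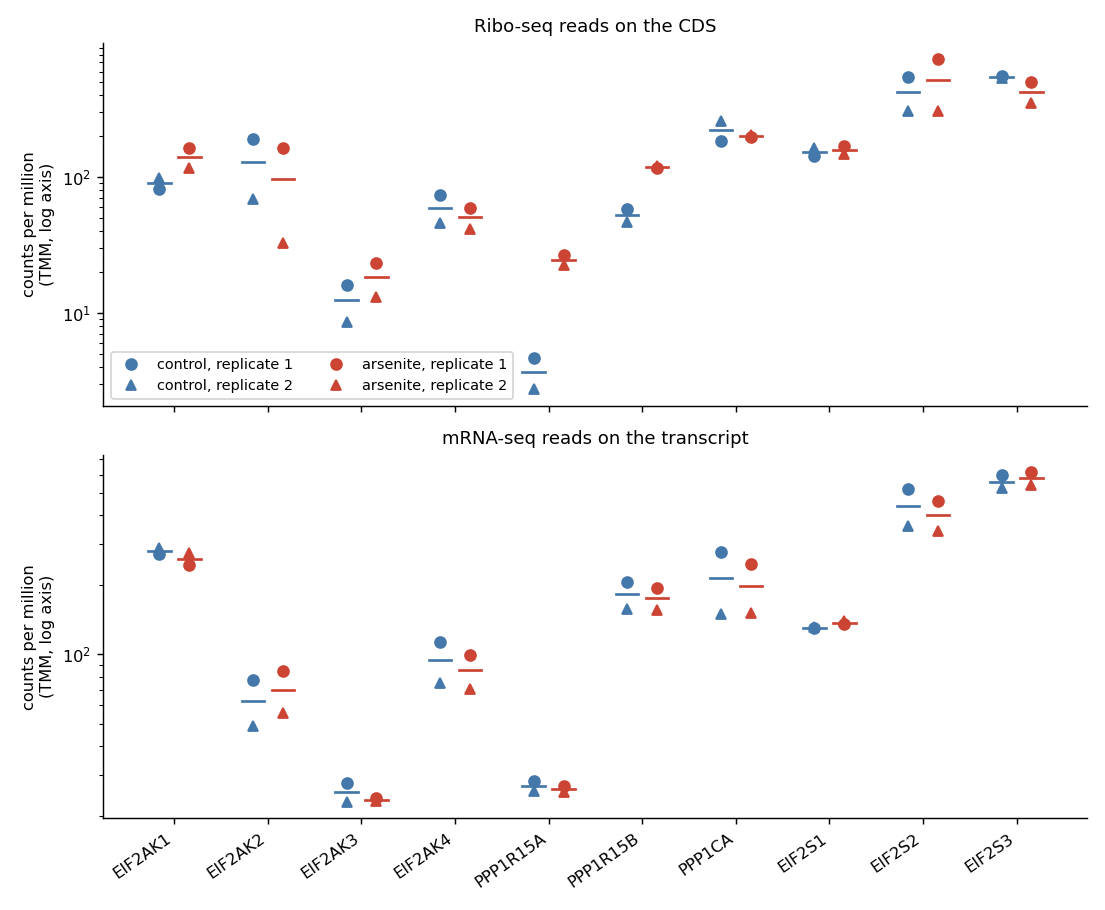
TMM-scaled cpm (log axis) of each of the 10 genes in every library, ribo-seq reads on the CDS above and mRNA-seq reads on the transcript below. Circles are replicate 1, triangles replicate 2, short lines the mean of each treatment. In the upper panel PPP1R15A moves from 2.73 to 4.62 cpm in control to 22.7 to 26.6 cpm in arsenite, while in the lower panel control and arsenite lie together for this gene.

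The kinases gave values on both sides of zero, and none was called. EIF2AK1 (HRI, the kinase that arsenite activates) had a higher ribosome occupancy of its CDS in arsenite relative to the bulk of mRNAs. Its ribo-seq level was 81.5 and 98.7 cpm in control against 163 and 117 cpm in arsenite, with no overlap, and the difference was larger in replicate 1. mRNA levels, at 273 and 289 cpm in control and 244 and 276 cpm in arsenite, overlapped. The log2 TE change was 0.66 (SE 0.218, 95% interval 0.17 to 1.15, adjusted p = 0.131 by edgeR), made of 1.17 in replicate 1 and 0.31 in replicate 2.

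EIF2AK2 (PKR, which binds double-stranded RNA) lay on the opposite side. Its CDS had 190 and 69.3 cpm in control and 163 and 32.5 cpm in arsenite. The replicates were further apart than the treatments, and both were lower in arsenite. In mRNA it had 77.0 and 48.7 cpm in control and 84.3 and 55.8 cpm in arsenite, so that the RNA was slightly higher in both replicates (log2 change 0.18, SE 0.0690, adjusted p = 0.109 by edgeR). The log2 TE change was -0.82 (SE 0.235, 95% interval -1.34 to -0.29, adjusted p = 0.0948 by edgeR), with -0.34 and -1.29 in the replicates. Its ribosome occupancy change of -0.65 had an adjusted p of 0.114 (edgeR), and it crossed the threshold where the filter on low counts was dropped (adjusted p = 0.0488 by edgeR) or raised to a mean of 30 (adjusted p = 0.0427 by edgeR). It is the member nearest to a call among those not called.

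EIF2AK3 (PERK, the kinase of the endoplasmic reticulum) had the fewest ribo-seq reads of the kinases, 28 and 66 on the CDS in control and 22 and 43 in arsenite. These were 16.2 and 8.59 cpm against 23.4 and 13.2 cpm, higher in arsenite within each replicate and overlapping between the groups. The log2 TE change of 0.63 was similar in both replicates (0.75 and 0.61) but was not called (SE 0.257, 95% interval 0.06 to 1.21, adjusted p = 0.202 by edgeR). EIF2AK4 (GCN2, which senses uncharged tRNA) was at 73.4 and 45.7 cpm in control and at 59.7 and 41.4 cpm in arsenite on the CDS, and these ranges overlapped. Its log2 TE change was -0.07 (95% interval -0.44 to 0.30, adjusted p = 0.837 by edgeR), with -0.10 and -0.06 in the replicates. Of the 4 kinases, EIF2AK4 was the one whose TE change lay closest to zero. Whether the kinases differed from each other in their change was not tested.

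None of the eIF2 subunits was called. EIF2S2 and EIF2S3 had the highest read levels of the 10 genes in both assays, unadjusted for length. EIF2S1, the α subunit that carries the regulatory phosphorylation site, had 143 and 163 cpm on its CDS in control and 169 and 147 cpm in arsenite. The groups overlapped, and the log2 TE change was -0.06 (95% interval -0.43 to 0.32, adjusted p = 0.875 by edgeR). In mRNA-seq its libraries were at 130 and 132 cpm in control and 135 and 139 cpm in arsenite, the single gene of the 10 whose mRNA groups did not overlap. Such a separation, arsenite above control, was found in 8.11% of all 12599 genes and the opposite one in 8.33%, and the log2 RNA change was 0.07 (adjusted p = 0.532 by edgeR).

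EIF2S2, the β subunit, was at 543 and 309 cpm on its CDS in control and at 739 and 308 cpm in arsenite. Replicate 1 alone was higher, the groups overlapped, and the log2 TE change was 0.34 (95% interval -0.06 to 0.74, adjusted p = 0.310 by edgeR). EIF2S3, the GTP-binding γ subunit, had 557 and 536 cpm in control and 501 and 354 cpm in arsenite on the CDS. The arsenite libraries were both below control, and the log2 TE change of -0.44 was not called (95% interval -0.84 to -0.04, adjusted p = 0.196 by edgeR), with -0.21 and -0.65 in the replicates. In ribo-seq, 3 of the 10 genes had arsenite above control without overlap (EIF2AK1, PPP1R15A and PPP1R15B) and 1 had it below (EIF2S3), where the shares among 10291 genes were 12.8% and 13.2%. EIF2S3 is known to have a near-identical copy elsewhere in the genome. Reads shared between genes were not counted by the authors, and whether any EIF2S3 reads were lost in this way was not tested.

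Because ribosome reads in the 5′ leader mark translation ahead of the CDS, the leader was examined next. PPP1R15A and PPP1R15B stood apart from the other 8 members, for which at most 3.55% of leader and CDS reads lay in the leader. In PPP1R15A the leader held 38.5% (95% Wilson interval 17.7 to 64.5) and 43.2% (28.7 to 59.1) of the leader and CDS reads in control. In arsenite the shares were 10.7% (3.71 to 27.2) and 15.9% (9.72 to 25.0). Both arsenite libraries were below both control libraries, and in replicate 2 the intervals did not meet. The read numbers behind these shares are small, 5 and 16 leader reads in control and 3 and 14 in arsenite. Raw counts grew on the CDS alone, but the arsenite libraries were shallower. These leader counts are not scaled to depth, so they do not show that leader occupancy fell. All intervals cover counting error only.

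In PPP1R15B the leader share was 17.9% (12.1 to 25.6) and 30.6% (26.8 to 34.7) in control and 10.6% (6.28 to 17.2) and 22.0% (18.6 to 25.8) in arsenite. The share was lower in arsenite within each replicate, while replicate 2 was higher than replicate 1 in both treatments and the groups overlapped. Among genes with at least 20 leader and CDS reads, PPP1R15B lay above 97.7% to 99.2% of genes in the 4 libraries, and PPP1R15A above 96.1% to 99.5% in the 3 libraries where it had enough reads. Over all genes together, the leader took 0.399% and 0.802% of these reads in control and 0.497% and 1.54% in arsenite, a higher share in arsenite within each replicate. The direction within each replicate was thus opposite for these 2 genes and for all genes together.

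The mRNA-seq reads give a reference for how much of each transcript is leader. For PPP1R15A the leader was 2.24 and 7.38 times as rich in ribosomes per mRNA read as the CDS in control, and 0.920 and 1.31 times in arsenite. For PPP1R15B these ratios were 0.931 and 3.03 in control and 0.532 and 2.05 in arsenite. Within each replicate the ratio was lower in arsenite for both genes. EIF2S1 gave the contrast of a leader that was well covered by mRNA-seq, with 8.77% to 22.4% of its leader and CDS reads there, and nearly free of ribosomes, at 0.397% to 2.04% of ribo-seq reads.

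**Figure D3:**
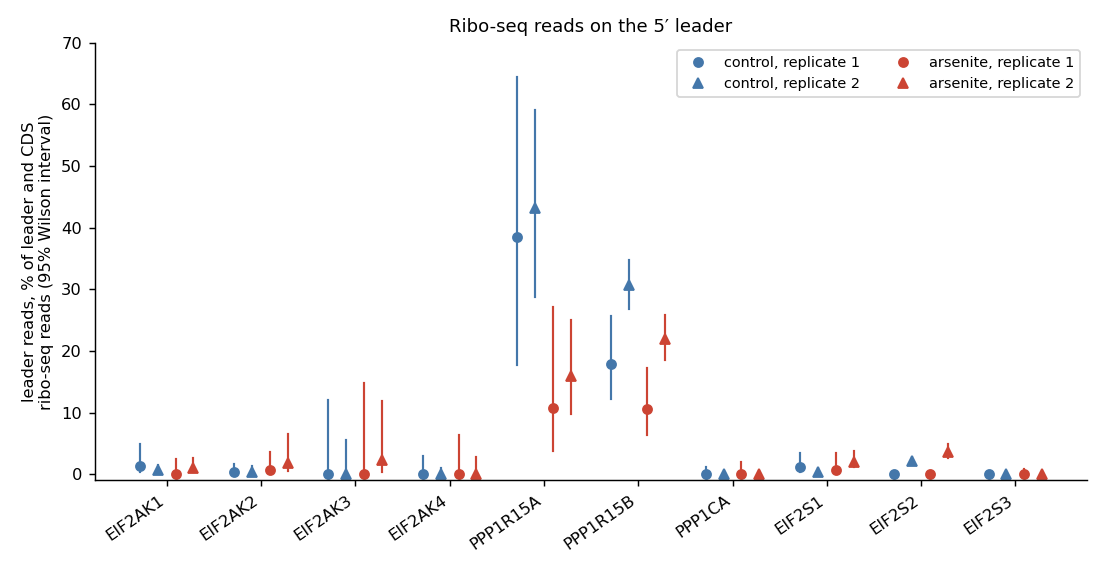
Share of leader reads among leader and CDS ribo-seq reads, in percent, for the 10 genes in each of the 4 ribo-seq libraries. Circles are replicate 1 and triangles replicate 2, and lines are 95% Wilson intervals for counting error. PPP1R15A stands at 38.5% and 43.2% in control and at 10.7% and 15.9% in arsenite, PPP1R15B between 10.6% and 30.6%, and the other 8 genes lie near the bottom of the axis.

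A test of the leader to CDS shift, the change of leader reads minus the change of CDS reads on the log2 scale, was possible for 2 of the 10 genes, those with a mean of at least 10 reads in both regions. It called 0 of these 2, with 0 at an unadjusted p under 0.05 and 0 in DESeq2, against 0.154% of all 650 genes tested (30.2% at an unadjusted p under 0.05). DESeq2 gave an adjusted p to EIF2S2 alone, so its count says nothing of PPP1R15B. PPP1R15B had a shift of -0.65 (95% interval -1.46 to 0.16, adjusted p = 0.227 by edgeR), with -0.86 and -0.65 in the replicates, where the median of all 650 genes was 0.80. The interval lay below that median, although the gene's own shift was not separated from zero. EIF2S2 had 0.50 (95% interval -0.73 to 1.72, adjusted p = 0.498 by edgeR). With no filter on low counts PPP1R15A could be fitted as well, and its shift was -2.05 (95% interval -3.41 to -0.70, adjusted p = 0.144 by edgeR among 7606 genes), with -2.24 and -1.98 in the replicates.

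The leader reads of EIF2S2 came from replicate 2 alone, 53 in control (2.18% of leader and CDS reads) and 37 in arsenite (3.55%). Replicate 1 had 0 of 940 and 0 of 694, which allow shares of up to 0.319% and 0.432%. The mRNA-seq leader share of this gene was also lower in replicate 1 (2.29% and 2.03%) than in replicate 2 (6.20% and 6.58%). EIF2AK4, PPP1CA and EIF2S3 had no leader read in any ribo-seq library. The deepest of these libraries, control replicate 2, allows up to 0.855% for EIF2AK4, 0.149% for PPP1CA and 0.0728% for EIF2S3. In the 3′ UTR, EIF2S3 had 12 of 1166 ribo-seq reads in arsenite replicate 2 (1.03%, 95% Wilson interval 0.590 to 1.79) and 2 of 4121 in control replicate 2. Replicate 1 had 0 of 470 in arsenite and 1 of 965 in control, so the difference was seen in replicate 2 alone. Over all genes the 3′ UTR share was also higher in arsenite, 0.201% and 0.755% against 0.102% and 0.204% in control. The part of that general difference in the EIF2S3 value was not tested.

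Levels of different genes can be set side by side through TE in control, the ratio of ribo-seq to mRNA-seq reads on the CDS, in which the length of the CDS cancels. On a log2 scale relative to the median gene of each replicate, the order ran from PPP1R15A at -3.00 ± 0.656 (SD, n = 2) over EIF2AK1 at -1.46 ± 0.0563, PPP1R15B at -1.16 ± 0.452, EIF2AK3 at -1.11 ± 0.291 and EIF2AK4 at -1.03 ± 0.116. PPP1R15A was thus the least translated of the 10 per mRNA. In replicate 2 it stood at percentile 0.306 of 11126 genes, and in replicate 1 its 8 reads were too few to rank. EIF2S2 at -0.15 ± 0.145 and EIF2S3 at 0.25 ± 0.190 were near the median gene. Between them PPP1CA had a mean of -0.01 ± 1.08, with its replicates on opposite sides of the median gene. EIF2S1 at 0.92 ± 0.0150 and EIF2AK2 at 1.12 ± 0.360 were the highest, and EIF2AK2 lay at percentiles 95.9 and 86.8. Neighbours in this order were apart beyond their replicate ranges only between PPP1R15A and EIF2AK1, between EIF2AK4 and EIF2S2, and between EIF2S3 and EIF2S1. PPP1CA differed between the replicates more than any other member, at -0.77 and 0.76.

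In arsenite the order closed up. PPP1R15A was at -0.26 and -0.39 relative to the median gene, percentiles 38.6 and 33.8, and PPP1R15B at -0.31 and 0.46. EIF2AK2 was at 0.93 and -0.35, which put it at percentile 88.8 in replicate 1 and 35.3 in replicate 2. EIF2AK4 was the one member below -1 in both replicates, at -1.16 and -1.20. With mRNA-seq reads over the whole transcript as the divisor, in which length no longer cancels, it was at -0.54 and -0.38, and its control mean was -0.28 in place of -1.03. By that divisor PPP1R15A was still the lowest of the 10 in control, at -2.47, and EIF2AK2 the highest, at 1.29. The control libraries enter both these levels and the changes above, so the levels are no independent evidence on the changes.

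**Figure D4:**
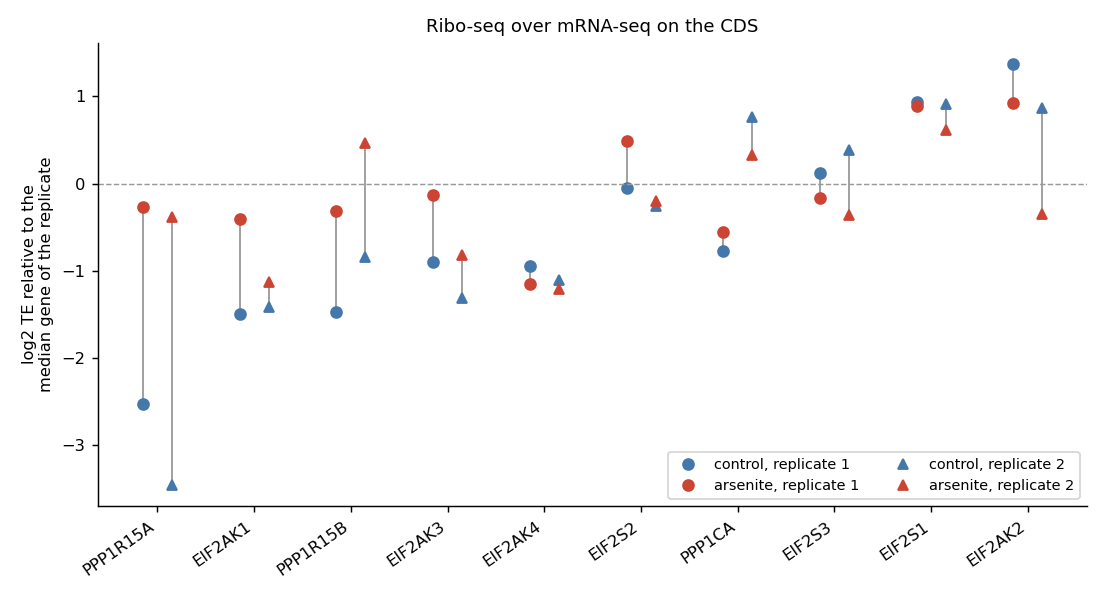
Log2 TE on the CDS relative to the median gene (dashed line) for the 10 genes, ordered by their mean in control. Each grey line joins control and arsenite of 1 replicate, circles for replicate 1 and triangles for replicate 2. PPP1R15A climbs from -2.53 and -3.46 to -0.26 and -0.39, and EIF2AK2 is at 1.38 and 0.87 in control and at 0.93 and -0.35 in arsenite.

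Genes with the pattern most like that of a member were found by Euclidean distance over 4 values, the log2 TE and RNA changes of both replicates, among 10273 genes. Nearest to PPP1R15A were ATF5, a stress transcription factor whose mRNA carries uORFs (distance 0.404), C19orf48 (0.427) and IFRD1, a transcriptional coregulator (0.768), with log2 TE changes of 2.73, 2.86 and 2.33. All 3 passed the TE test (adjusted p = 0.00774, 0.00930 and 0.000927 by edgeR). The genes near each member were chosen by these same TE changes, so their test results are no independent evidence. Closest to PPP1R15B lay ZSCAN32 (0.110), XBP1 (0.170), a transcription factor of the unfolded protein response, and SLU7 (0.199), a splicing factor. XBP1 and SLU7 passed the TE test (adjusted p = 0.0115 and 0.00930 by edgeR), and ZSCAN32 did not (adjusted p = 0.0752 by edgeR). For EIF2AK2 the nearest were GDAP2 (0.102), TIMM9 (0.149) and ALKBH3 (0.194), with log2 TE changes between -0.82 and -1.01, none of them called (adjusted p = 0.0593 to 0.124 by edgeR).

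The rest of the pathway was followed through 38 other genes in 5 roles. In ribosome occupancy 3 of 37 tested were higher and 2 lower, in TE 2 were higher and 1 lower, and in RNA level 4 of 38 were higher and 0 lower (edgeR, adjusted p under 0.05). These are to be read against 2.77%, 1.99% and 5.75% of all genes in either direction, and for the RNA level 3.75% upward. The 5 subunits of eIF2B, the exchange factor that phosphorylated eIF2 blocks, gave 0 calls in each of these tests by edgeR, with 0 at an unadjusted p under 0.05 in TE and occupancy and 1 in RNA level. DESeq2 also called 0, but gave no adjusted p to 4 of the 5 in RNA level and to 1 in TE. Their log2 TE changes ran from -0.34 (EIF2B3) to 0.18 (EIF2B2).

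Regulators of the kinases gave 0 calls of 11 in TE and in ribosome occupancy by edgeR. At an unadjusted p under 0.05 there were 4 and 2, where the shares of all genes were 21.1% and 17.6%. DESeq2 called 0 too, with no adjusted p for 6 of the 11 in TE and 1 in occupancy. Their log2 TE changes ran from -0.77 (PRKRA, the protein activator of EIF2AK2, adjusted p = 0.0658 by edgeR) to 0.50 (KIAA0141, also known as DELE1, which relays mitochondrial stress to EIF2AK1, adjusted p = 0.143 by edgeR). ABCF1, an ATP-binding protein that associates with eIF2, rose in RNA by 0.37 on the log2 scale, in both replicates (0.41 and 0.35, adjusted p = 3.22e-09 by edgeR). Its log2 changes were -0.17 in ribosome occupancy and -0.56 in TE, neither of them called (adjusted p = 0.676 and 0.114 by edgeR). Of the other catalytic subunits of protein phosphatase 1, PPP1CC fell by 0.66 in ribosome occupancy on the log2 scale (adjusted p = 0.0498 by edgeR, 0.103 with libraries scaled to total reads and 0.252 by DESeq2). PPP1CB had a change of -0.46 that was not called (adjusted p = 0.204 by edgeR).

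Among the partner factors of eIF2, BZW1, an eIF5 mimic protein that binds eIF2, fell in ribosome occupancy. It had 1929 and 2477 CDS reads in control and 359 and 595 in arsenite, raw counts from shallower arsenite libraries. Its log2 change relative to the bulk of mRNAs was -1.18 (adjusted p = 0.00211 by edgeR), with -1.54 and -0.82 in the replicates. Its log2 TE change of -1.07 (adjusted p = 0.0477 by edgeR) was at the threshold and missed it under most alternatives. EIF5B, the GTPase of subunit joining, rose in RNA by 0.21 on the log2 scale (adjusted p = 0.00241 by edgeR, 0.233 by DESeq2). The log2 TE changes of the 12 partner factors tested ran from that of BZW1 to 0.26 (DENR). The DENR value was not called and had opposite signs in the replicates (1.13 and -0.48).

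Downstream of eIF2 phosphorylation, the transcription factors ATF4 and ATF5 rose in TE by 2.28 and 2.73 on the log2 scale (adjusted p = 0.0113 and 0.00774 by edgeR). The ATF5 value rests on few CDS reads, 4 and 25 in control and 12 and 76 in arsenite. DDIT3, the transcription factor CHOP, rose in ribosome occupancy by 2.14 (adjusted p = 0.0242 by edgeR, 0.0629 with libraries scaled to total reads) on 4 and 11 CDS reads in control and 15 and 16 in arsenite, and in RNA by 0.53 (adjusted p = 0.00115 by edgeR). Its log2 TE change of 1.60 was not called (adjusted p = 0.0869 by edgeR), with 2.05 and 1.24 in the replicates. CHAC1, a target of ATF4 that degrades glutathione, rose in RNA by 0.47 (adjusted p = 0.0103 by edgeR, 0.178 with mRNA-seq restricted to CDS reads), while its log2 TE change was -0.13. ASNS, which makes asparagine and is another ATF4 target, had the lowest log2 TE change of the downstream genes, -0.38 (adjusted p = 0.188 by edgeR). The leader shares of ATF4 were 4.06% and 14.6% in control and 2.77% and 7.82% in arsenite, lower in arsenite within each replicate, and its leader to CDS shift was -0.70 (adjusted p = 0.353 by edgeR). The median shift of all genes tested was 0.80. ATF5 had a shift of -2.36 (adjusted p = 0.101 by edgeR), with 0.11 and -2.53 in the replicates. In replicate 1 it had 0 leader reads in control and 1 in arsenite, too few to give a direction. SESN2 had a shift of 0.60 (adjusted p = 0.297 by edgeR), above zero but below the median of all genes. DDIT3 had 0 and 9 leader reads in control and 5 and 25 in arsenite, too few for the test. In all, edgeR called 0 of the 7 pathway genes tested for this shift, with 3 at an unadjusted p under 0.05, against 30.2% of all genes. DESeq2 called 0 of the 4 to which it gave an adjusted p.

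**Figure D5:**
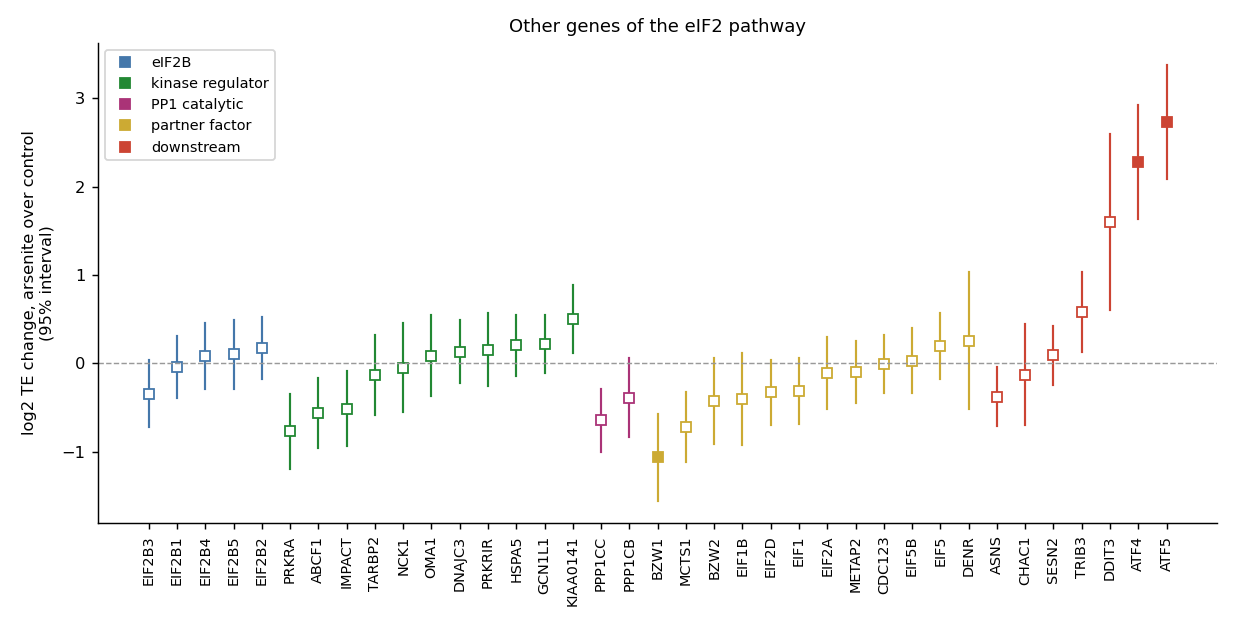
Log2 TE change in arsenite over control of the 37 other pathway genes tested, grouped by role and sorted within it. Squares are edgeR estimates, filled where the adjusted p was under 0.05, and lines are 95% intervals. ATF5 at 2.73 and ATF4 at 2.28 stand above the rest, and BZW1 at -1.07 is the filled square below zero.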

How the data were processed

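Ribo-seq and mRNA-seq of HEK293T cells with 40 µM sodium arsenite or vehicle (30 min) were analysed in 2 replicates, 8 libraries in all. The deposited values are raw counts without normalization that the authors made per RefSeq transcript. They trimmed adapters with cutadapt, set aside rRNA and spike-in reads, aligned the rest with Bowtie 1.0.0 and left out reads shared between genes. A genome build is not given in the sources used here, and transcript lengths were not used. Region counts (leader, CDS, 3′ UTR) were read for 35851 of 47087 transcripts, and 1 transcript was kept for each of 19964 genes, of which 7766 had 2 or more to choose from. For EIF2AK2 a tie in CDS reads was broken by mRNA-seq reads.

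Changes were tested with edgeR 4.0.16 (R 4.3.3), quasi-likelihood, TMM, Benjamini-Hochberg over all genes whose mean count reached 10, threshold 0.05. TE was the assay by treatment interaction and the leader to CDS shift the region by treatment interaction, both with a replicate block within assay or region. The methods rescale the conditions within each replicate, and the replicates had different adapters and sequencing. They do not state that control and arsenite samples were paired. Libraries of the same number deviated together (r = 0.827 over 11477 genes in mRNA-seq and 0.766 over 8488 in ribo-seq). Log2 values of single replicates had 0.5 added as prior count. Levels are TMM-scaled cpm, shares have 95% Wilson intervals, and a count of 0 was given a limit of 3 counts. The tests were checked on simulated counts. Alternatives were DESeq2 1.42.0, other normalizations, filters, transcripts and read regions, other block structures and leaving out each replicate (Python 3.11.15, numpy 2.4.6, scipy 1.17.1, pandas 2.3.3, matplotlib 3.10.9).

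The 10 genes, the pathway list and the markers were chosen with earlier results of these data known. All 10 genes are named, with the pathway genes past a threshold, the lowest and highest TE change of each role, and the 3 genes nearest to PPP1R15A, PPP1R15B and EIF2AK2. C19orf48 and other symbols are those of the files.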

Additional observations from a re-analysis of the deposited data

How the results depend on the processing

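Without the replicate block, the members called went from 2 to 0 in ribosome occupancy and in TE, and all genes called were 0 in each of the 4 tests, where they had been 725 for RNA level, 285 for occupancy, 204 for TE and 1 for the leader to CDS shift. With 1 block shared by both assays, 0 members and 0 genes were called in TE. DESeq2 called 1 member in occupancy and 1 in TE, with no adjusted p for PPP1R15A and EIF2AK3, and 86, 53, 93 and 13 genes in the tests as listed. Occupancy calls over all genes numbered 473 with upper-quartile normalization, 71 with total reads, 539 with no filter and 569 with a mean of at least 30 counts. With no filter and with a mean of at least 30 counts, 3 members were called in occupancy, EIF2AK2 being the added one. Restricting mRNA-seq to CDS reads gave 87 TE calls and 240 RNA level calls, and TE had 433 with no filter. The shift gave 30 calls with no filter and 0 at a mean of at least 30. The RNA change of ATF5, not called, was -0.015 with mRNA-seq restricted to CDS reads, in place of 0.047. The log2 TE change of PPP1R15A was 2.54 and 3.05, and that of PPP1R15B 1.10 and 1.38, with either replicate left out, as values with no test since no residual degrees of freedom remain. Counts of calls could not be fitted there. With mRNA-seq reads over the whole transcript, 5 of the 10 control TE values moved by more than the SD of the replicates. Another transcript rule gave the same transcript for all 10 genes. Among the 10 genes depth limits PPP1R15A most, with 8 CDS reads in control replicate 1, and the cause of the changed counts was not tested.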
